A study of Homo sapiens with 18 samples.

Results

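The baseline of UC14, a human urothelial cancer cell line, was described from its 3 control arrays, set against the 3 control arrays of Scaber and the 3 control arrays of UC7. These 9 arrays belong to a set of 18 Illumina bead arrays. The UC14 controls carried a non-targeting shRNA and the Scaber controls a non-targeting siRNA, while the UC7 controls were labelled as control only and the design text calls them untreated. The other 9 arrays were UC14 with p63 shRNA, Scaber with STAT3 siRNA, and UC7 treated with rosiglitazone at 1 µM for 24 h. All 3 lines were obtained from a tissue bank for bladder cancer, and the labels give them the same medium with serum. A gene was called UC14-higher or UC14-lower when UC14 differed from Scaber and from UC7 in the same direction, with an adjusted p under 0.05 in each comparison. Of 11715 genes tested, 2300 were UC14-higher (19.6%) and 2246 were UC14-lower (19.2%).

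Urothelium is the lining of the bladder, with a basal layer marked by KRT5 and p63 and a luminal surface that carries uroplakins. Lines derived from its cancers keep parts of these programmes to different degrees: some express luminal regulators such as GATA3, FOXA1 and PPARG, and others keep basal or squamous genes. Scaber is known as a line from a squamous bladder carcinoma. Each group here is 1 cell line with its own control treatment, so line, control treatment and array background cannot be told apart in any comparison. Nothing in the labels ties the 3 arrays of a line to separate cultures, so the p-values cover only the spread between arrays, which may be technical.

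The raw signal of the arrays differed by line. Median raw signal was 99.5 to 111.9 on the UC14 control arrays, 110.9 to 115.8 on the Scaber arrays and 51.6 to 55.4 on the UC7 arrays. A probe was counted as detected when its detection p, against the negative controls of its own array, was under 0.01. By that measure 14032 to 15287 probes were detected per UC14 array, 17293 to 18021 per Scaber array and 19963 to 20160 per UC7 array. Correlation between arrays of the same line lay between 0.977 and 0.982 for UC14, 0.991 and 0.992 for Scaber, and 0.996 and 0.997 for UC7. UC14 correlated with Scaber at 0.908 to 0.916 and with UC7 at 0.907 to 0.915. UC14 was thus the line with the fewest detected probes and the widest spread between its own arrays.

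Each comparison on its own called most genes. UC14 differed from Scaber at 7877 genes (67.2%), of which 4058 were higher (34.6%) and 3819 lower (32.6%), and from UC7 at 8469 genes (72.3%), of which 3682 were higher (31.4%) and 4787 lower (40.9%). The median difference over all genes was 0.02 from Scaber and -0.13 from UC7 on the log2 scale. Of the genes not called UC14-specific, 1367 lay between the other lines, 1964 differed from Scaber only, 2556 from UC7 only and 1282 from neither. The 2 comparisons share the UC14 arrays, so the count fixed by the rule is the only overlap given. At a difference of at least 2-fold from each line, 671 genes were UC14-higher (5.73%) and 806 UC14-lower (6.88%). On all 3 UC14 arrays 2423 genes lay above all 6 other control arrays (20.7%) and 2364 lay below them (20.2%).

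Detection shaped the lower side more than the higher side. A gene was tested when all 3 arrays of at least 1 line detected it. A gene undetected in UC14 therefore entered through Scaber or UC7. Counts of list members undetected in UC14 are given below without a share over all tested genes, and no excess is read from them. Of the 2246 UC14-lower genes, 918 were undetected on all 3 UC14 arrays, and 416 of these were among the 806 at least 2-fold. In all, 701 genes (5.98%) were undetected on the 3 UC14 arrays and detected on all 6 others, against 145 for Scaber and 57 for UC7 counted in the same way. Detection on the 3 UC14 arrays and on none of the others held for 44 genes (0.376%), against 206 for Scaber and 902 for UC7. Among genes detected on all 9 arrays, 475 were UC14-higher and 264 UC14-lower at 2-fold or more. The scaling of the arrays mattered too. When each array was scaled to its median over all probes in place of quantile normalisation, the median of all genes moved to -0.27 against Scaber and -1.18 against UC7, and the split became 419 UC14-higher and 4583 UC14-lower genes. Of the 1477 genes called at 2-fold or more, 1160 were still called in the same direction under that scaling. Values under that scaling are given below as values under median scaling, and counts of list members are given there as higher, then lower. Those counts stand beside 419 and 4583 of all 11715 genes, not beside the main shares. Median scaling over probes detected on all 18 arrays gave 2244 UC14-higher and 1986 UC14-lower genes. With only probes detected on all 9 control arrays, 2025 were UC14-higher and 1170 UC14-lower of 7740 genes. Counts of list members at these settings stand beside those.

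Among the 14 genes highest in UC14, KRT13, a keratin of non-cornified stratified epithelia, measured 13.75, 13.69 and 13.73 on the UC14 arrays on the log2 scale, 6.61, 6.51 and 6.62 in Scaber and 5.57, 5.33 and 5.57 in UC7. The 3 UC14 values lay within 0.1 of each other and far above the 6 others, and UC14 exceeded Scaber by 7.14 ± 0.10 (SE, 3 arrays per group, adjusted p = 1.19e-11) and UC7 by 8.23 ± 0.10. AKR1C2, an aldo-keto reductase that acts on steroid hormones, stood at 14.65, 14.70 and 14.60 in UC14, 7.53, 7.42 and 7.64 in Scaber, and 5.18, 5.54 and 5.49 in UC7. Its difference from UC7 was 9.25 ± 0.12, or 607-fold, and from Scaber 7.12 ± 0.12, or 139-fold. DHRS2, a short-chain dehydrogenase of mitochondria, gave 13.09, 12.80 and 13.09 in UC14, 5.22, 5.41 and 4.90 in Scaber, where 1 of 3 arrays detected it, and 5.47, 5.33 and 5.81 in UC7. It exceeded Scaber by 7.82 ± 0.16 and UC7 by 7.46 ± 0.16, and neither set of arrays overlapped with UC14.

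Several of the highest genes were detected in UC14 and in neither other line. PADI3, a peptidylarginine deiminase of the hair follicle and epidermis, measured 11.32, 11.35 and 11.61 in UC14 and was at least 72.8-fold higher than in Scaber (adjusted p = 1.21e-10) and at least 88.8-fold higher than in UC7. VCAN, the matrix proteoglycan versican, was at least 20.3-fold and 24.7-fold higher than in Scaber and UC7. COXFA4L2, a mitochondrial protein known as NDUFA4L2 and induced in hypoxia, was at least 29.6-fold and 36.2-fold higher. CYP4F22, a fatty acid hydroxylase needed for barrier lipids of the skin, was at least 14.7-fold and 17.96-fold higher. These bounds set the UC14 mean against the lowest detectable signal on the arrays that did not detect the gene. BTBD16 was undetected in Scaber and detected on 1 UC7 array, and SEMA6A, a semaphorin, was undetected in Scaber and detected on 2 UC7 arrays. The bounds against Scaber were at least 38.0-fold for BTBD16 and 24.2-fold for SEMA6A.

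Among the highest genes were also FABP4 and SCD, which bind and desaturate fatty acids. FABP4, a fatty acid carrier that PPARγ is known to induce, gave 13.14, 12.68 and 12.48 in UC14, 6.07, 5.77 and 6.07 in Scaber and 6.60, 6.39 and 6.95 in UC7. The differences were 6.80 ± 0.19 and 6.12 ± 0.19, and all 3 UC14 arrays stood above all others. SCD, the stearoyl-CoA desaturase, was 5.05 ± 0.09 above Scaber and 4.94 ± 0.09 above UC7, where it was detected on every array.

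**Figure D1:**
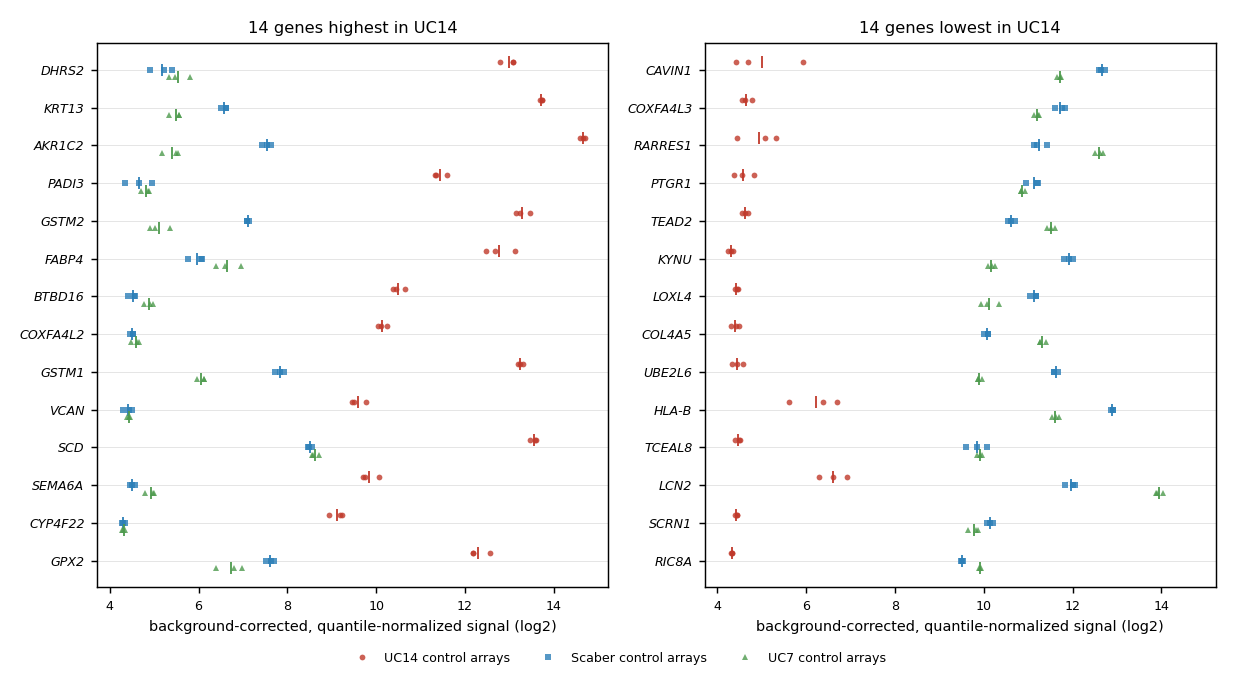
Log2 signal of the 14 genes highest and the 14 genes lowest in UC14 on each of the 9 control arrays, with points for arrays and vertical ticks for the means of 3 arrays. No UC14 array overlaps an array of the other lines in any row, which is part of how these genes were chosen, and 11 of the 14 lowest genes were undetected on all 3 UC14 arrays.

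The genes lowest in UC14 included genes of caveolae, matrix, inflammation and antigen presentation. CAVIN1, a coat protein that caveolae need, measured 4.42, 5.92 and 4.68 in UC14, with detection on 1 of 3 arrays, against 12.63, 12.73 and 12.60 in Scaber and 11.65, 11.75 and 11.73 in UC7. The differences were -7.65 ± 0.30 and -6.70 ± 0.30, and the UC14 arrays spread more widely than the others. HLA-B, a class I antigen-presenting molecule, stood at 5.61, 6.38 and 6.69 in UC14, 12.91, 12.91 and 12.86 in Scaber and 11.53, 11.69 and 11.62 in UC7. It was 102-fold below Scaber and 41.7-fold below UC7, with detection on 2 of 3 UC14 arrays. LCN2, a lipocalin that binds bacterial iron carriers, was detected on all arrays at 6.60, 6.28 and 6.93 in UC14, 12.00, 12.06 and 11.82 in Scaber and 13.89, 13.89 and 14.03 in UC7. Its differences were -5.36 ± 0.15 and -7.33 ± 0.15.

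The other 11 of these 14 genes were undetected on all 3 UC14 arrays and detected on all 6 others. KYNU, the kynureninase of tryptophan breakdown, was at least 69.1-fold below Scaber and 20.6-fold below UC7. COXFA4L3, a mitochondrial protein listed as C15orf48 in older annotations, was at least 60.7-fold and 42.3-fold lower. UBE2L6, the enzyme that passes ISG15 to its targets, was at least 56.2-fold and 17.1-fold lower. RARRES1, a gene induced by retinoic acid, was at least 43.7-fold and 111-fold lower, which made the bound against UC7 the largest among the 14. PTGR1, a prostaglandin reductase, was at least 39.9-fold and 33.5-fold lower, and TEAD2, a DNA-binding partner of YAP, at least 28.2-fold and 52.3-fold. LOXL4, a lysyl oxidase that crosslinks collagen, and COL4A5, a collagen IV chain, were at least 40.3-fold and 19.2-fold below Scaber. SCRN1, TCEAL8 and RIC8A, a chaperone of G protein alpha subunits, were at least 20.3-fold, 16.4-fold and 13.1-fold below Scaber.

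The general epithelial and urothelial markers were seldom UC14-specific, and several were far above Scaber alone. Of 14 identity genes tested, 0 were UC14-higher and 2 UC14-lower (14.3%), beside 19.6% and 19.2% of all genes. The lower count was 1 without UC14 replicate 2 or 3 or Scaber replicate 2 or 3. The medians were 0.82 against Scaber and -0.14 against UC7. KRT19, a simple-epithelial keratin, measured 13.80, 13.88 and 13.87 in UC14, 6.82, 6.75 and 7.02 in Scaber, and 14.20, 14.02 and 13.88 in UC7. It thus separated UC14 from Scaber by 6.98 ± 0.11 and differed from UC7 by -0.18 ± 0.11 (adjusted p = 0.171). KRT7 followed the same order, 6.50 ± 0.14 above Scaber and 0.14 ± 0.14 from UC7 (adjusted p = 0.38), or -0.88 from UC7 under median scaling. GATA3, a luminal transcription factor, was undetected in Scaber and at least 6.79-fold higher in UC14, with a difference of -0.15 ± 0.11 from UC7. FOXA1 was 1.95 ± 0.09 above Scaber and differed by -0.19 ± 0.09 from UC7 (adjusted p = 0.0802). EPCAM was 1.25 ± 0.10 above Scaber and 0.14 ± 0.10 from UC7 (adjusted p = 0.237), or -0.87 under median scaling, and 1 of its further probes passed in both comparisons. KRT8 lay between, 1.65 ± 0.11 above Scaber and at -1.11 from UC7. ELF3 was the clearest UC14-lower member of this group at -1.31 ± 0.11 and -1.80 ± 0.11. KLF5 passed at -0.46 ± 0.16 and -0.58 ± 0.16, with 1 UC14 array inside the Scaber range, and did not pass against Scaber when any of UC14 replicate 2 or 3 or a Scaber array other than replicate 1 was left out (-0.35 to -0.43). KRT7, KRT8, KRT19 and UPK1B were named after their values were seen, as were 22 further genes listed with the processing steps.

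Of 18 luminal genes tested, 6 were UC14-higher (33.3%) and 1 UC14-lower (5.6%), beside 19.6% and 19.2% of all genes. The counts were 5 and 4 under median scaling, and the medians 1.20 and -0.17. The lower count was 2 without UC14 replicate 3 and 3 without Scaber replicate 3. FGFR3, a growth factor receptor gene often mutated in luminal bladder cancer, measured 12.10, 12.16 and 12.30 in UC14, 8.76, 8.96 and 8.64 in Scaber and 5.98, 6.08 and 6.17 in UC7. The 3 lines did not overlap, and UC14 stood 3.40 ± 0.11 and 6.11 ± 0.11 above the others, or 10.6-fold and 69.1-fold. CYP2J2, an epoxygenase of arachidonic acid, was 5.78 ± 0.12 above Scaber, where 1 array detected it, and 3.26 ± 0.12 above UC7. UPK1B, a uroplakin of the urothelial surface, was 5.51 ± 0.23 and 2.63 ± 0.23 higher, while UPK2 was undetected in UC14 and Scaber and at least 1.87-fold lower than in UC7. PPARG exceeded Scaber by 1.56 ± 0.09 and UC7 by 0.79 ± 0.09, or -0.29 under median scaling, and its 2 further probes gave 1.81 and 2.19, and 0.03 and -0.87, against Scaber and UC7.

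KRT5, the keratin of basal urothelium, measured 9.80, 9.82 and 9.49 in UC14, 10.98, 10.96 and 10.86 in Scaber and was undetected in UC7. It stood at -1.23 ± 0.12 from Scaber and at least 26.9-fold above UC7, which put UC14 between the lines. KRT14 was undetected in UC14 and UC7 and at least 26.2-fold below Scaber. Of 13 basal genes tested 3 were UC14-higher (23.1%) and 2 UC14-lower (15.4%), beside 19.6% and 19.2% of all genes. The counts were 1 and 4 under median scaling. ITGB4, the integrin subunit of hemidesmosomes, was 2.53 ± 0.11 and 1.44 ± 0.11 higher. KRT6C was at least 7.74-fold above Scaber and 1.14 ± 0.23 above UC7, or -0.22 under median scaling, and its probe may read the near-identical KRT6A and KRT6B. CDH3, the placental cadherin, was lower, at -1.96 ± 0.10 and -0.60 ± 0.10. KRT20 and ZEB1 were undetected on all 9 arrays, and neither was tested.

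Of 17 squamous differentiation genes tested, 3 were UC14-higher (17.6%) and 8 UC14-lower (47.1%), beside 19.6% and 19.2% of all genes. The medians were -2.28 against Scaber and -0.82 against UC7. Of the 17, 8 were undetected on all 3 UC14 arrays. With only probes detected on all 9 control arrays, the counts were 2 higher and 3 lower. S100A8 and S100A9, which pair as the calcium-binding protein calprotectin, were lower than in both lines. S100A8 stood at 9.18, 9.03 and 9.14 in UC14, 11.62, 11.61 and 11.65 in Scaber and 11.41, 11.09 and 11.31 in UC7, and S100A9 was lower, at -2.28 ± 0.11 and -2.0 ± 0.11. The higher members included KRT13, described above, and LY6D, a surface protein of keratinocytes and urothelium, which was undetected in the other lines and at least 16.4-fold and 20.03-fold higher.

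Glutathione and aldo-keto detoxification genes held some of the widest differences in UC14, in both directions. These enzymes conjugate, reduce or oxidise reactive compounds, and many are known targets of the transcription factor NRF2. Of 25 members tested, 11 were UC14-higher (44.0%) and 5 UC14-lower, beside 19.6% and 19.2% of all genes, and the counts were 7 and 7 under median scaling. GSTM2, a glutathione transferase of the mu class, measured 13.16, 13.25 and 13.47 in UC14, 7.08, 7.13 and 7.10 in Scaber and 5.03, 5.36 and 4.91 in UC7, where 2 arrays detected it. GSTM1 was 5.42 ± 0.10 above Scaber and 7.18 ± 0.10 above UC7, and its 2 further probes were higher by 6.31 to 7.21. The GSTM genes are near-identical, as are AKR1C2, AKR1C3 and AKR1C4, so which member a probe reads is uncertain. AKR1C4 was 4.62 ± 0.12 and 4.05 ± 0.12 higher, and AKR1C3 2.52 ± 0.11 above Scaber and 0.97 ± 0.11 above UC7, or -0.09 under median scaling. ALDH3A1, an aldehyde dehydrogenase of the cornea and other epithelia, was at least 19.3-fold above Scaber, which did not detect it, and 9.20-fold above UC7.

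GPX2, the glutathione peroxidase of gut epithelium, is shown with its promoter because it was among the highest genes and carries a match to the core letters of the antioxidant response element, the site that NRF2 binds. It measured 12.56, 12.18 and 12.18 in UC14, 7.64, 7.51 and 7.70 in Scaber, and 6.80, 6.40 and 6.98 in UC7, which made it 25.8-fold and 47.9-fold higher. The 250 bases before its start in RefSeq (GRCh38.p14, minus strand, chr14:64942746-64942995) are given with the match to TGACNNNGC, searched on both strands, in capitals.
GPX2: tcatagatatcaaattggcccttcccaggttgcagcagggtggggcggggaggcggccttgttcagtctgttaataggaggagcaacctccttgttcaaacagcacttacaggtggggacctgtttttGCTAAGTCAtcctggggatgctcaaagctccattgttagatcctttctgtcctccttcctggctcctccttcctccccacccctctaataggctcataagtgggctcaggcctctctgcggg
The match begins 122 bases before the start. In the 300-base window around each start, these letters occurred in 17.1% of 516 promoters of genes UC14-higher by at least 2-fold, 13.6% of 648 of those UC14-lower, 15.2% of 9456 promoters of tested genes and 13.6% of all 27305 promoters in the table. A match of this kind is common and describes the letters only. Among other highest genes searched in the same way, GSTM1 held 1 match, and AKR1C2, GSTM2 and DHRS2 held 0.

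The 5 lower members of the same list were GSTT1, CYP1A1, CYP1B1, AKR1B10 and TXNRD1, a thioredoxin reductase that was lower by less than 2-fold from Scaber (-0.36 and -1.30). GSTT1, a theta-class glutathione transferase, was at least 9.97-fold and 5.66-fold lower. CYP1A1 and CYP1B1, cytochromes that the aryl hydrocarbon receptor is known to induce, were undetected in UC14, at least 3.88-fold and 2.84-fold below Scaber, and at least 22.5-fold and 6.58-fold below UC7. AKR1B10, a reductase of the same family as the AKR1C genes, stood at 6.04, 5.18 and 4.6 in UC14, with detection on 1 array, and at 10.58, 10.21 and 10.63 in Scaber. Members of this list therefore diverged within UC14, with AKR1C2 among the highest genes and AKR1B10 near the detection limit.

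Cholesterol synthesis genes were mostly higher in UC14 than in either line. Of 18 tested, 10 were UC14-higher (55.6%) and 0 UC14-lower, beside 19.6% and 19.2% of all genes. The medians were 1.06 against Scaber and 0.65 against UC7, beside 0.02 and -0.13 over all genes. Under median scaling the counts were 4 and 1, beside 419 and 4583 of all 11715 genes. IDI1, the isopentenyl diphosphate isomerase, measured 10.24, 9.88 and 10.08 in UC14, 6.74, 6.43 and 6.75 in Scaber, and 7.49, 7.53 and 7.65 in UC7. The groups did not overlap, and the differences were 3.43 ± 0.13 and 2.51 ± 0.13. SQLE, the squalene epoxidase that limits sterol synthesis, was 2.13 ± 0.11 and 2.04 ± 0.11 higher, and INSIG1, the sterol-induced brake on the pathway, 1.96 ± 0.12 and 2.06 ± 0.12. CYP51A1 was 1.38 ± 0.17 and 1.91 ± 0.17 higher, HMGCS1, which makes the precursor of mevalonate, 1.68 ± 0.12 and 1.31 ± 0.12. LSS, the lanosterol synthase, was 2.73 ± 0.14 above Scaber and 0.89 ± 0.14 above UC7, or -0.38 under median scaling.

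**Figure D2:**
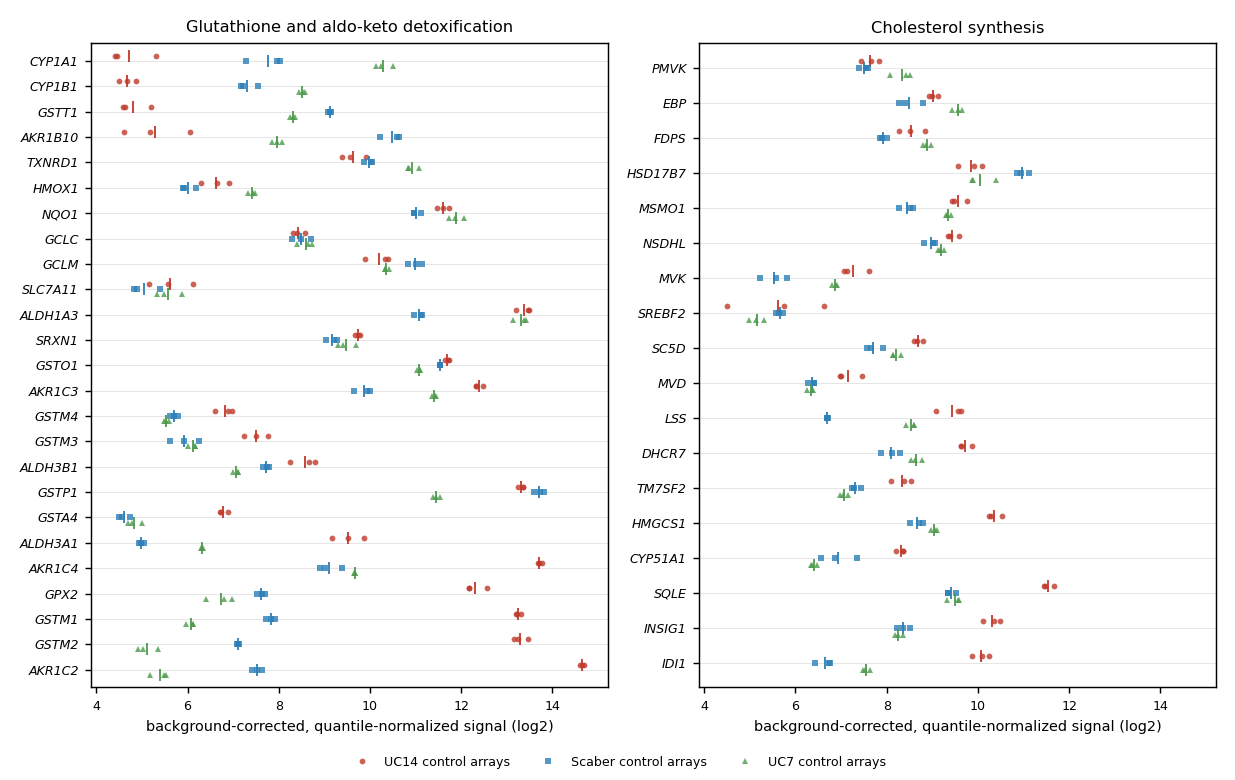
Log2 signal of all tested members of the detoxification and cholesterol synthesis lists on each of the 9 control arrays, ordered by the difference between UC14 and UC7, with points for arrays and ticks for means of 3 arrays. UC14 arrays lie to the right of both other lines for AKR1C2, GSTM2, GSTM1 and GPX2 and for IDI1, INSIG1 and SQLE, and to the left for CYP1A1, CYP1B1, GSTT1 and AKR1B10.

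Antigen-presentation genes showed the highest share of lower members of any list. MHC class I molecules carry peptides to the cell surface with β2-microglobulin, after immunoproteasome subunits cut the peptides and TAP transporters move them into the endoplasmic reticulum. Of 13 members tested, 10 were UC14-lower (76.9%) and 0 UC14-higher, beside 19.2% and 19.6% of all genes, with medians of -1.85 and -1.35, and 13 were lower under median scaling. Besides HLA-B, the class I gene HLA-F was at 8.68, 8.22 and 8.04 in UC14, 12.29, 12.48 and 12.35 in Scaber and 11.46, 11.42 and 11.26 in UC7. HLA-C was lower, at -2.63 ± 0.17 and -1.37 ± 0.17. Probes for HLA genes may cross-read between loci and alleles, which makes the values of single HLA genes uncertain. B2M, the β2-microglobulin gene, measured 12.02, 11.94 and 12.29 in UC14, 13.82, 14.02 and 13.96 in Scaber, and 13.98, 13.80 and 13.85 in UC7. It was thus well detected in UC14 and 3.60-fold and 3.47-fold below the other lines, with -1.64 and -1.21 on its further probe.

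The processing genes followed. PSMB9, an immunoproteasome subunit, was undetected in UC14 at 4.35, 4.28 and 4.34, against 9.39, 9.21 and 9.32 in Scaber and 8.43, 8.23 and 8.74 in UC7, and was at least 11.3-fold and 6.36-fold lower. PSMB8, a second such subunit, was lower, at -2.01 ± 0.13 and -1.32 ± 0.13, although 1 of its 3 further probes differed by -0.08 and 0.04 and did not pass. TAP1 was lower, at -2.26 ± 0.10 and -1.41 ± 0.10. TAPBP, the tapasin gene, was lower, at -1.51 ± 0.15 and -1.35 ± 0.15, and 1 of its further probes passed against Scaber only.

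Interferon-response genes, which interferons induce, were lower in most but not all cases. Of 36 tested, 19 were UC14-lower (52.8%) and 3 UC14-higher (8.3%), beside 19.2% and 19.6% of all genes. The medians were -2.32 against Scaber and -0.40 against UC7. In 3 of the 19, another line was undetected as well as UC14. When median scaling used only probes detected on all 18 arrays, the lower count was 15, and over all probes it was 24. IFI27, a mitochondrial protein strongly induced by interferon, was undetected in UC14 at 4.38, 4.36 and 4.41, against 12.74, 12.75 and 12.85 in Scaber and 6.14, 6.96 and 6.74 in UC7. The bound was at least 126-fold below Scaber and 1.75-fold below UC7, so most of this contrast lay with Scaber. MX1, an antiviral GTPase, stood at 4.68, 5.86 and 6.09 in UC14, 10.24, 10.54 and 10.03 in Scaber and 8.79, 8.55 and 8.85 in UC7. HERC5, a ligase for ISG15, was lower, at -4.01 ± 0.09 and -2.33 ± 0.09, IFIT2 at -3.53 ± 0.12 and -1.69 ± 0.12, and EPSTI1 at -2.30 ± 0.12 and -2.0 ± 0.12. IRF9, a transcription factor of the interferon response, was lower, at -2.20 ± 0.10 and -1.94 ± 0.10.

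The 3 higher members were BST2, MX2 and OAS3. BST2, the tetherin that holds budding virus at the surface, measured 10.30, 10.25 and 10.45 in UC14, 9.66, 9.63 and 9.45 in Scaber and was undetected in UC7, at least 41.7-fold below UC14. MX2 was 1.68 ± 0.16 above Scaber and 0.79 ± 0.16 above UC7, and OAS3 0.51 ± 0.10 and 0.87 ± 0.10, with -0.59 and -0.42 from UC7 under median scaling. The list therefore did not move as a block.

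The promoters of TAP1 and IFI27 are shown because both genes were UC14-lower and both windows hold the core of the interferon response element, written GAAA, any 2 bases, GAAA, and searched on both strands. Capitals mark the matches. The TAP1 bases are chr6:32853705-32853954 on the minus strand and those of IFI27 chr14:94110486-94110735 on the plus strand, each the 250 bases before the start in RefSeq (GRCh38.p14).
TAP1: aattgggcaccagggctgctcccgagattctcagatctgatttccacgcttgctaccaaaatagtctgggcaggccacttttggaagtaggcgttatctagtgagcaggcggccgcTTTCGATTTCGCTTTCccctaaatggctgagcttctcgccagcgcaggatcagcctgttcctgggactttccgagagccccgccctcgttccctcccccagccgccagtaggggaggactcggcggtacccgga
IFI27: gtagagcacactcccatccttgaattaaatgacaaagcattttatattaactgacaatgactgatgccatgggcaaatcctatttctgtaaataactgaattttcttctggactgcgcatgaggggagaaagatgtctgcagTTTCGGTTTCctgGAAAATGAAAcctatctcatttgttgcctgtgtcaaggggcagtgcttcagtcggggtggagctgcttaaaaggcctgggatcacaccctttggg
Each window holds 2 matches, which overlap in TAP1 and begin 134 bases before its start, and begin 108 bases before the start of IFI27. The TAP1 window overlaps that of PSMB9, its neighbour on the opposite strand, whose own window holds 0 matches. The windows of UBE2L6 and HLA-B, both among the lowest genes, also hold 0. These searches took in 50 bases after the start as well. That of MX1 found 1 match, which begins 11 bases after the start. The letters occurred in 3.7% of 648 promoters of genes UC14-lower by at least 2-fold, 1.7% of 516 of those UC14-higher, 2.9% of 9456 promoters of tested genes and 3.6% of all 27305.

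Inflammatory cytokine genes and their NF-kB feedback genes were also often lower in UC14. Of 18 tested, 10 were UC14-lower (55.6%) and 1 UC14-higher (5.6%), beside 19.2% and 19.6% of all genes. The higher count was 2 without Scaber replicate 3, and the medians were -1.35 and -1.20. Of the 18, 9 were undetected on all 3 UC14 arrays. With only probes detected on all 9 control arrays, 3 were lower and 1 higher. IL6, a cytokine that signals through STAT3, was undetected in UC14 at 4.81, 5.27 and 4.71, against 9.53, 9.36 and 9.83 in Scaber and 10.49, 10.69 and 10.58 in UC7. It was at least 13.7-fold and 27.6-fold lower. CXCL8, the neutrophil chemokine interleukin 8, was detected on all arrays at 6.35, 6.55 and 6.37 in UC14, 10.60, 10.86 and 10.87 in Scaber and 10.94, 11.01 and 10.86 in UC7, or 20.5-fold and 22.8-fold lower. CXCL1 was at least 19.2-fold and 9.31-fold lower. Among inhibitors of NF-kB, TNFAIP3 was at least 4.22-fold and 16.03-fold lower, and NFKBIA, still detected at 10.26, 10.24 and 10.59, was 2.69-fold and 4.70-fold lower.

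**Figure D3:**
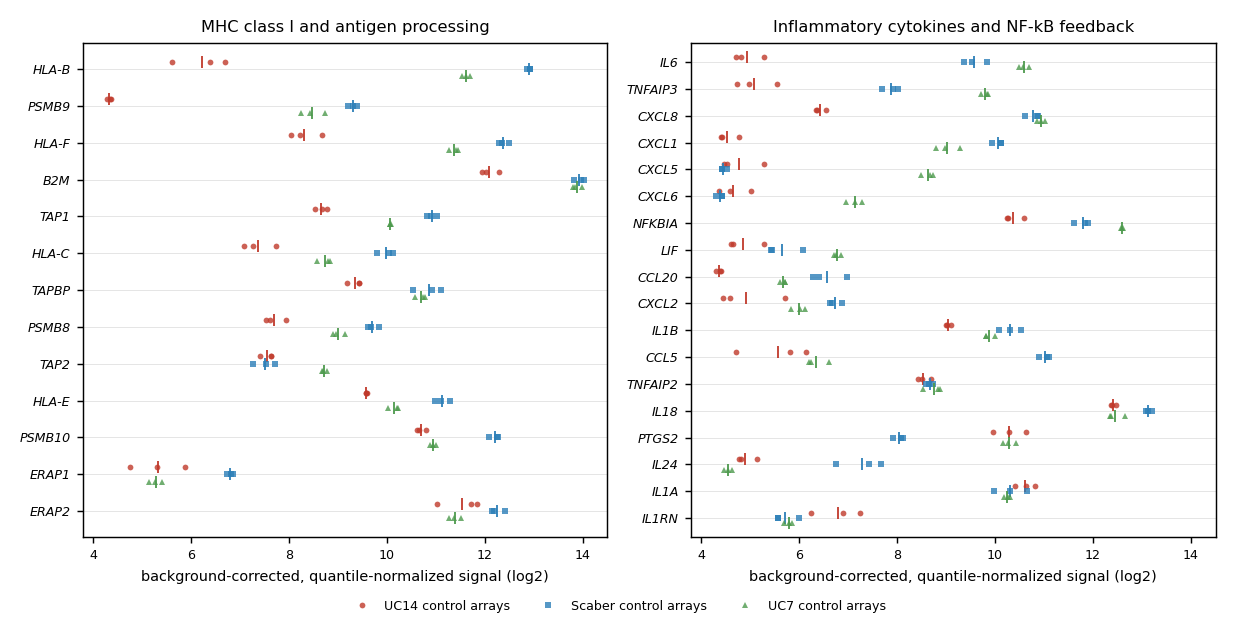
Log2 signal of all tested members of the MHC class I and inflammatory cytokine lists on each of the 9 control arrays, ordered by the difference between UC14 and UC7, with points for arrays and ticks for means of 3 arrays. UC14 arrays lie to the left of both other lines for HLA-B, PSMB9, HLA-F, B2M and TAP1 and for IL6, TNFAIP3, CXCL8 and CXCL1.

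Known STAT3 targets were mixed, with 3 of 20 UC14-higher (15.0%) and 6 UC14-lower (30.0%), beside 19.6% and 19.2% of all genes. The counts were 0 and 11 under median scaling, beside 419 and 4583 of all 11715 genes. STAT3 itself was lower, at -0.40 ± 0.10 and -0.82 ± 0.10, but its 2 further probes did not pass against Scaber (-0.21 and 0.07). MUC1, a surface mucin, stood at 6.67, 6.78 and 7.26 in UC14, 11.86, 12.11 and 11.79 in Scaber and 9.55, 9.64 and 9.95 in UC7. It was 32.3-fold and 7.02-fold lower, and its 2 further probes were lower too, at -1.05 to -4.801. BCL3, a nuclear IκB protein, was lower, at -2.34 ± 0.17 and -3.59 ± 0.17, and IL6ST, the gp130 receptor subunit shared by IL6-type cytokines, at -1.57 ± 0.13 and -1.72 ± 0.13.

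Epithelial junction genes included 8 UC14-lower members of 18 tested (44.4%) and 0 UC14-higher, beside 19.2% and 19.6% of all genes. DSC2, a desmosomal cadherin, was undetected in UC14 and at least 14.7-fold and 5.92-fold lower. CLDN7, a tight junction claudin, measured 6.65, 6.89 and 7.39 in UC14, 10.30, 10.21 and 10.15 in Scaber and 10.55, 10.72 and 10.79 in UC7. CLDN1 was lower, at -3.71 ± 0.16 and -2.17 ± 0.16, and CGN, the tight junction protein cingulin, at -1.63 ± 0.09 and -3.48 ± 0.09. CDH1, E-cadherin, did not follow them: it lay 0.28 ± 0.10 above Scaber, or -0.16 under median scaling, and at -0.66 ± 0.10 from UC7. Without Scaber replicate 1 or UC14 replicate 2 the CDH1 difference from Scaber did not pass (0.23 and 0.21).

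Hemidesmosome and basement membrane genes were divided evenly, with 4 of 18 in each direction (22.2%), beside 19.6% and 19.2% of all genes. The counts depended on the scaling and on 2 Scaber arrays. They were 1 and 7 under median scaling and 2 and 3 when that scaling used probes detected on all 18 arrays, and the higher count was 2 without Scaber replicate 1 or 3. ITGB4 stood on the higher side. The paired X-linked collagen IV genes COL4A5 and COL4A6 were undetected in UC14, and COL4A6 was at least 5.27-fold and 20.7-fold lower. COL4A2 was undetected in UC14 and Scaber and at least 8.42-fold below UC7. LAMB3, a laminin-332 chain, was lower, at -1.87 ± 0.10 and -1.16 ± 0.10, while its further probe lay between the lines at -1.41 and 0.63.

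FGFR3 was UC14-higher, as given above. Of 8 genes of the EGFR family and its ligands, 1 was UC14-higher (12.5%) and 3 UC14-lower (37.5%), beside 19.6% and 19.2% of all genes. The counts were 0 and 6 under median scaling, and with 8 genes no direction is read from them. The higher count was 0 without Scaber replicate 2, and the lower count 5 without Scaber replicate 3. EGFR was lower, at -0.82 ± 0.09 and -0.46 ± 0.09, but neither of its 2 further probes was lower than UC7 past the threshold (0.41 and -0.14). EREG, the ligand epiregulin, was undetected in UC14 and at least 1.46-fold and 3.80-fold lower, and BTC, betacellulin, was at least 1.18-fold below UC7 and undetected in UC14. HBEGF was the higher ligand at 9.08, 9.07 and 9.09 in UC14, 8.74, 8.62 and 8.92 in Scaber and 8.41, 8.39 and 8.36 in UC7, or -0.01 and -0.60 under median scaling, and it did not pass against Scaber without Scaber replicate 2 (0.25). FGF2 was undetected in UC14 and at least 1.94-fold below Scaber, while UC7, at a mean of 5.33 against 4.35, was too close to the floor for a bound.

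Of 14 ERK feedback genes, 4 were UC14-higher (28.6%) and 2 UC14-lower (14.3%), beside 19.6% and 19.2% of all genes. The counts were 1 and 3 under median scaling. The higher count was 2 without UC14 replicate 2 or UC7 replicate 3, and the lower count 1 without UC14 replicate 1 or 3, Scaber replicate 1 or UC7 replicate 2. SPRED2, a Ras-ERK inhibitor, was 2.46 ± 0.15 and 1.91 ± 0.15 higher, and SPRED1 0.79 ± 0.13 and 1.29 ± 0.13. FOSL1, a transcription factor subunit that ERK induces, was lower, at -1.37 ± 0.17 and -1.42 ± 0.17. DUSP4 passed at -0.96 ± 0.30 and -0.98 ± 0.30 with overlap between arrays, and without UC14 replicate 1 or 3 or Scaber replicate 1 it did not pass against Scaber (-0.71 to -0.81), nor against UC7 without UC7 replicate 2 (-0.82). In the Notch pathway 2 of 13 genes were UC14-higher (15.4%) and 1 UC14-lower (7.7%), both below the shares over all genes. The counts were 0 and 3 under median scaling. The Notch effectors HES1 and HEY1 were the higher members, HES1 by 1.96 ± 0.13 and 1.40 ± 0.13 and HEY1 by 0.78 ± 0.15 and 2.10 ± 0.15, and the receptor NOTCH2 was lower, at -0.46 ± 0.14 and -0.68 ± 0.14. On the treated arrays HEY1 was lower in UC14 than in both lines (-1.31 and -0.49), and within UC14 it fell by 2.46 with p63 shRNA. PPAR targets had 3 of 13 higher (23.1%) and 1 lower (7.7%), beside 19.6% and 19.2% of all genes, or 2 and 2 under median scaling. FABP4 and SCD were joined by ACSL1 at 1.30 ± 0.12 and 0.95 ± 0.12, or -0.41 from UC7 under median scaling. ANGPTL4, a lipase inhibitor, was undetected in UC14 and at least 13.6-fold and 5.18-fold lower.

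**Figure D4:**
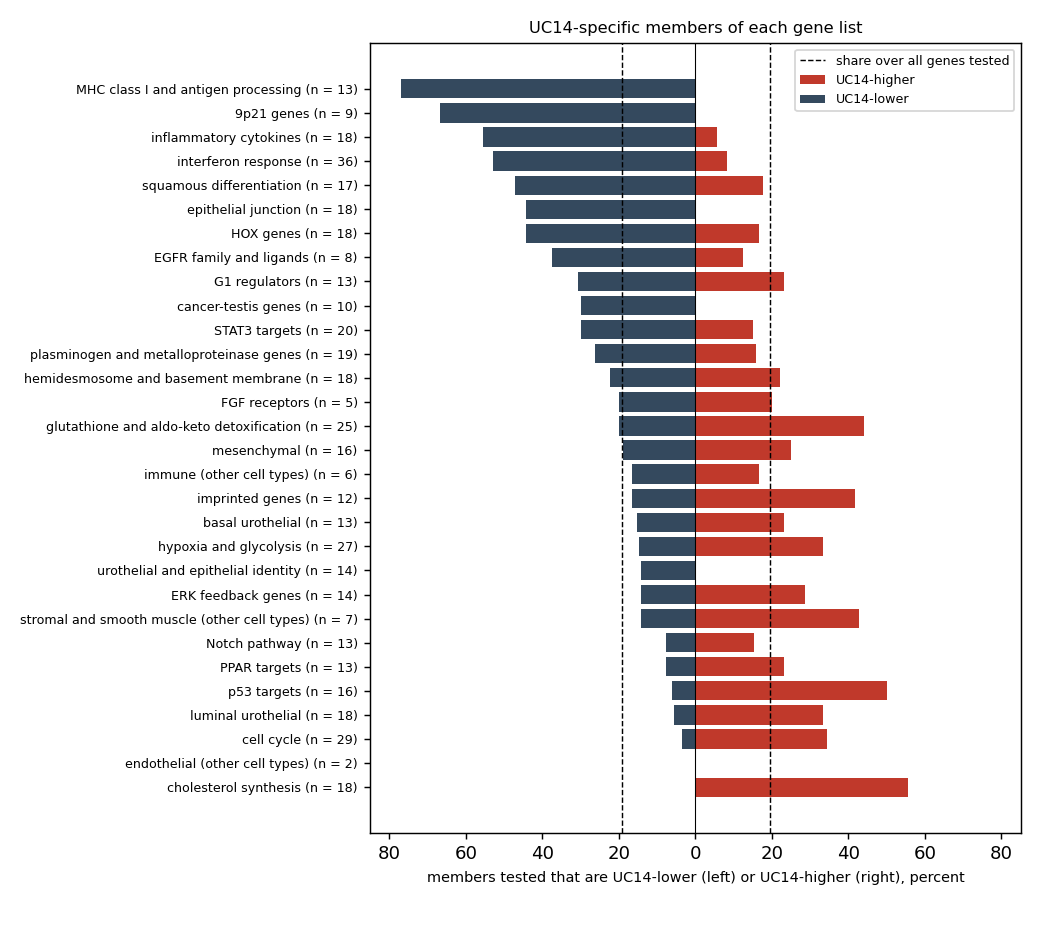
Share of the tested members of each of 30 gene lists that were UC14-higher (right) or UC14-lower (left), in percent, with dashed lines at the shares over all 11715 genes, 19.6% and 19.2%, and the number tested beside each name. The MHC class I, 9p21, cytokine and interferon lists extend furthest to the left, and cholesterol synthesis, p53 targets and detoxification furthest to the right; the lists were chosen with earlier results of these data known, and no list was tested as a set.

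Of 29 cell cycle genes tested, 10 were UC14-higher (34.5%) and 1 UC14-lower (3.4%), beside 19.6% and 19.2% of all genes. The medians were 1.34 against Scaber and 0.15 against UC7, and the counts were 2 and 1 under median scaling. TK1, a thymidine kinase of DNA synthesis, measured 11.25, 11.33 and 11.18 in UC14, 9.43, 9.25 and 9.31 in Scaber and 9.34, 9.53 and 9.66 in UC7. TYMS, the thymidylate synthase, was 1.96 ± 0.14 and 1.61 ± 0.14 higher, and BIRC5, the survivin gene of mitosis, 2.43 ± 0.12 and 1.34 ± 0.12. RRM2, a ribonucleotide reductase subunit, was 3.56 ± 0.12 above Scaber and 1.07 ± 0.12 above UC7, or -0.14 under median scaling. E2F1, the transcription factor of S-phase genes, was the lower member, undetected in UC14 and at least 1.74-fold and 1.22-fold lower.

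The G1 inhibitors of chromosome 9p21 were at or near the detection limit in UC14. CDKN2A, which encodes p16 and p14ARF and is often deleted in bladder cancer, measured 4.52, 4.53 and 4.64 in UC14, 9.06, 9.0 and 8.53 in Scaber, and 9.41, 9.61 and 9.79 in UC7. It was undetected on all 3 UC14 arrays and at least 8.36-fold and 13.9-fold lower, and its further probe differed by -4.43 and -5.004. Its neighbour MTAP, an enzyme of methionine salvage, was also undetected and at least 1.93-fold and 11.02-fold lower. CDKN2B, which encodes p15, stood at 5.88, 4.57 and 5.94 with detection on 1 array and was lower, at -1.83 ± 0.30 and -4.25 ± 0.30, and 1 of its 2 further probes did not pass against Scaber. FOCAD was undetected and at least 1.43-fold and 2.23-fold lower. Of 9 genes of 9p21 tested, 6 were UC14-lower (66.7%) and 0 UC14-higher, beside 19.2% and 19.6% of all genes. Of the 9, 6 were undetected in UC14. On all of chromosome 9, 118 of 491 genes were UC14-lower (24.0%) and 47 UC14-higher (9.6%). Among other G1 regulators, RB1, the retinoblastoma gene, was undetected in UC14 and at least 3.003-fold below Scaber, with a mean of 4.52 against 5.18 in UC7 that allows no bound, and the difference from UC7 was 0.37 when median scaling used probes detected on all 18 arrays. RBL2, its relative p130, was lower, at -1.47 ± 0.12 and -0.85 ± 0.12.

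Targets of p53 were higher in 8 of 16 cases and lower in 1, or 1 and 3 under median scaling. TP53I3, an oxidoreductase induced by p53, stood at 10.23, 10.13 and 10.04 in UC14, 7.84, 7.74 and 8.04 in Scaber and 7.63, 7.67 and 7.41 in UC7, 4.78-fold and 5.88-fold higher. CCNG1, cyclin G1, was 1.15 ± 0.15 and 1.27 ± 0.15 higher, and DDB2, a DNA damage binding subunit, 1.66 ± 0.17 and 0.98 ± 0.17, or -0.39 from UC7 under median scaling. TP53INP1 was lower, at -1.69 ± 0.25 and -2.38 ± 0.25, with detection on 1 UC14 array.

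Hypoxia and glycolysis genes were UC14-higher in 9 of 27 cases (33.3%) and UC14-lower in 4 (14.8%), beside 19.6% and 19.2% of all genes. The counts were 3 and 10 under median scaling. The lower members were among the most divergent. BNIP3, a mitophagy receptor induced in hypoxia, measured 7.09, 6.95 and 7.06 in UC14, 12.46, 12.38 and 12.49 in Scaber and 10.33, 10.36 and 10.06 in UC7, or 42.5-fold and 9.30-fold lower. SLC2A3, the glucose transporter GLUT3, was undetected and at least 2.43-fold and 72.5-fold lower, and ENO2, an enolase, at least 3.91-fold and 13.9-fold. On the higher side CA12, a carbonic anhydrase, was 1.84 ± 0.18 above Scaber and at least 68.3-fold above UC7, which did not detect it.

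Some HOX and cancer-testis genes were undetected in UC14 and were tested only through detection in Scaber or UC7. Of 18 HOX genes tested, 8 were UC14-lower (44.4%) and 3 UC14-higher (16.7%), beside 19.2% and 19.6% of all genes. Of the 18, 9 were undetected on all 3 UC14 arrays. With only probes detected on all 9 control arrays, 4 HOX genes were UC14-lower and 2 UC14-higher. HOXC9 was undetected in UC14 and at least 3.26-fold and 1.64-fold lower, HOXC8 undetected and at least 2.14-fold below Scaber, and HOXB2 undetected and at least 1.16-fold below Scaber. HOXD4 was higher at 6.77, 6.33 and 6.82, at least 2.63-fold above Scaber and 1.21 ± 0.16 above UC7. Of 10 cancer-testis genes tested, 3 were UC14-lower (30.0%) and 0 UC14-higher, and 9 of the 10 were undetected in UC14. All 3 were MAGEA genes, whose copies are near-identical: MAGEA3 was at least 5.18-fold and 1.65-fold lower, MAGEA6 was lower, at -3.11 ± 0.47 and -2.51 ± 0.47 with 1 UC14 array at 6.88 and the other 2 at 4.74 and 4.73, and MAGEA12 lay near the floor in all lines, with 0.10 from UC7 when median scaling used probes detected on all 18 arrays.

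Imprinted genes, which are expressed from 1 parental allele, included 5 UC14-higher (41.7%) and 2 UC14-lower (16.7%) of 12 tested. The shares over all genes were 19.6% and 19.2%, and the counts were 4 and 4 under median scaling. PEG10, a gene of retroviral origin, measured 9.65, 9.31 and 9.20 in UC14 and was at least 17.7-fold above Scaber, which did not detect it, and 13.5-fold above UC7. IGF2, the insulin-like growth factor, was detected in UC14 only, at least 3.56-fold and 4.34-fold higher. PLAGL1, a zinc finger regulator of imprinted genes, was undetected in UC14 and at least 1.29-fold and 3.79-fold lower. MEST gave opposite answers from 2 probes: the brighter was undetected in UC14 and at least 4.74-fold and 1.17-fold lower, while the other was 4.75 and 4.67 higher, so no direction is given for the gene.

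Of 19 genes of proteolysis, 3 were UC14-higher (15.8%) and 5 UC14-lower (26.3%), beside 19.6% and 19.2% of all genes. The counts were 1 and 9 under median scaling. MMP7, matrilysin, was undetected in UC14 at 4.30, 4.24 and 4.36, against 12.34, 12.32 and 12.38 in Scaber and 6.87, 7.07 and 6.80 in UC7, at least 93.5-fold and 2.16-fold lower. TIMP2, an inhibitor of metalloproteinases, was lower, at -4.02 ± 0.15 and -4.07 ± 0.15. PLAU, the urokinase gene, was 1.41 ± 0.12 and 2.32 ± 0.12 higher, whereas PLAUR, its receptor, was lower, at -1.26 ± 0.12 and -2.35 ± 0.12. Of 16 mesenchymal genes, 4 were UC14-higher (25.0%) and 3 UC14-lower (18.8%), or 3 and 5 under median scaling. S100A4 was 2.83 ± 0.20 and 2.39 ± 0.20 higher, AXL, a receptor kinase, was lower, at -3.05 ± 0.17 and -1.93 ± 0.17, and TWIST1 was undetected and at least 1.71-fold and 2.51-fold lower. VIM, vimentin, was 0.67 ± 0.10 and 1.30 ± 0.10 higher, or -0.05 from UC7 under median scaling. CDH2 was detected on all 3 arrays of each line, and FN1 on 0 UC14, 3 Scaber and 1 UC7 arrays. TAGLN, transgelin, stood at 8.97, 11.24 and 9.79 in UC14, the widest spread among the genes named here from this list, and was 1.65 ± 0.43 and 4.56 ± 0.43 higher.

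Markers of other cell types were mostly undetected, but not all. ACTA2 and COL1A1, of stroma and smooth muscle, were detected on all 9 arrays. CD14, an immune marker, was detected on 2 UC14, 3 Scaber and 3 UC7 arrays. PECAM1, an endothelial marker, was detected on 1 UC14, 2 Scaber and 3 UC7 arrays. Of 16 stromal and smooth muscle markers with a probe, 10 were undetected on all 3 UC14 arrays. Among them were DES, MYH11 and DCN, which were undetected on all 9. The summed normalized signal of the list, on the linear scale, lay between 1791 and 3657 on the UC14 arrays. It lay between 4010 and 4828 on the Scaber arrays, and between 600 and 629 on the UC7 arrays. TAGLN, at 8.97, 11.24 and 9.79 on the log2 scale in UC14, is part of that sum. Of 7 members tested, 3 were UC14-higher (42.9%) and 1 UC14-lower (14.3%), beside 19.6% and 19.2% of all genes. The higher members were TAGLN, COL1A1 (1.40 ± 0.10 and 2.81 ± 0.10) and PDGFRL (1.84 ± 0.20 and 0.99 ± 0.20, or -0.27 from UC7 under median scaling). MYLK was the lower member, at least 6.80-fold and 2.26-fold lower, although its further probe differed from Scaber only. The lower count was 2 without UC14 replicate 3. Of 18 immune markers, 14 were undetected in UC14, among them PTPRC and CD3D, and their sum lay between 1825 and 2275 for UC14, 3466 and 3509 for Scaber, and 604 and 621 for UC7. Of 6 tested, CSF1R was higher by 0.87 ± 0.14 and 3.34 ± 0.14, and FCGR3A was undetected in UC14, with means of 4.45, 5.63 and 4.94 in UC14, Scaber and UC7 that allow no bound, and a difference from UC7 of 0.69 when median scaling used probes detected on all 18 arrays. Of 11 endothelial markers, 9 were undetected in UC14, VWF and CDH5 on all 9 arrays, and neither of the 2 tested was UC14-specific. The part of such cells in the results was not tested.

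The treated arrays, which had no part in choosing the genes, were compared in the same way: UC14 with p63 shRNA against Scaber with STAT3 siRNA and against UC7 with rosiglitazone. On these 9 arrays 2104 genes were higher (18%) and 2130 lower (18.2%) in UC14 than in each other line. Of the 2300 UC14-higher genes, 1391 (60.5%) were higher again and 27 were lower. Of the 2246 UC14-lower genes, 1374 (61.2%) were lower again and 33 were higher. At 2-fold or more, 553 of 671 higher genes (82.4%) and 662 of 806 lower genes (82.1%) passed in the same direction, and 2 and 8 in the opposite direction. The treated arrays are of the same 3 lines, and each line carries a different treatment there.

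Of the 28 genes highest and lowest in UC14, 26 repeated. AKR1C2 was 7.89 and 9.18 above the other lines on the treated arrays, KRT13 8.33 and 6.77, and KYNU differed by -7.33 and -5.98. The 2 exceptions were FABP4 and LCN2. FABP4 was 5.82 above Scaber and at -2.65 from UC7 on the treated arrays. Within UC7 it rose by 6.60 with rosiglitazone, and within UC14 it fell by 2.18 with p63 shRNA. Both changes enter its difference from UC7 on the treated arrays. LCN2 differed from Scaber by 0.17 and from UC7 by -2.36. Among lists, 8 of the 10 lower MHC class I genes, 9 of the 11 UC14-specific cytokine genes, 15 of the 16 detoxification genes and 11 of the 22 interferon genes repeated, and 5 of the 10 cholesterol genes. HLA-B differed by -3.99 and -3.30 on the treated arrays, and CDKN2A by -4.06 and -4.50.

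Within UC14, the p63 shRNA arrays differed from the non-targeting arrays at 2766 genes that rose (23.6%) and 2509 that fell (21.4%). That comparison shares the UC14 control arrays with the baseline, so the values are set side by side only. LCN2 rose by 5.68 ± 0.13, MUC1 by 3.96, TIMP2 by 3.34, HLA-B by 2.39 and MX1 by 2.23, all genes that were UC14-lower at baseline. VCAN fell by 3.33, CYP4F22 fell by 2.39 and FABP4 fell by 2.18, all UC14-higher. Other genes moved the opposite way. S100A4 rose by 3.16 and BTBD16 by 1.17, although both were UC14-higher. CXCL8 (-1.80), S100A8 (-1.72) and AXL (-1.43) fell, although they were UC14-lower. AKR1C2 (0.06, adjusted p = 0.68), GPX2 (-0.03), DHRS2 (-0.04) and PSMB9 (0.13) did not pass. Of the 701 genes undetected in UC14 and detected in the other lines, 475 were also undetected on the 3 p63 shRNA arrays and 71 were detected on all 3. Of the 44 detected in UC14 only, 33 were detected on all 3 p63 shRNA arrays and 8 on none.

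**Figure D5:**
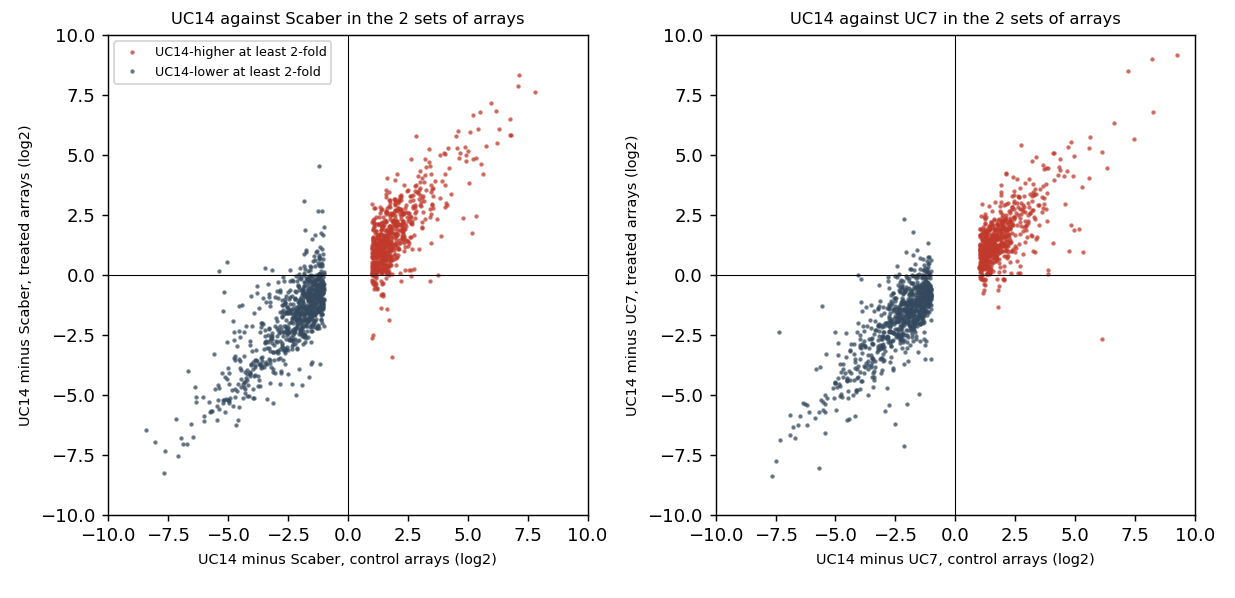
Log2 difference of UC14 from Scaber (left) and from UC7 (right) on the control arrays (horizontal) and on the treated arrays (vertical), 1 point per gene for the 671 UC14-higher and 806 UC14-lower genes of at least 2-fold. Most points lie in the quadrants of equal sign, and FABP4 stands apart at 6.12 and -2.65 against UC7. Within UC7, FABP4 rose by 6.60 with rosiglitazone.

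The UC14-specific genes were not spread evenly over the genome. Among 11692 genes placed on RefSeq chromosomes, chromosome 21 had the highest share of UC14-higher genes, 33.9% of 124, with 5.6% UC14-lower, and chromosomes 10 and 17 followed at 33.2% and 31.6%. Chromosome 20 had 26.2% UC14-lower and 10.9% UC14-higher of 320 genes, and chromosome 1 had 25.0% and 12.8% of 1221. Runs of neighbours were counted in windows of 20 tested genes, in which the median was 3 UC14-higher and 3 UC14-lower. The fullest window, from PIGG to NICOL1 on chromosome 4, held 15 UC14-higher genes and 0 UC14-lower. FGFR3 is in it, with ATP5ME, an ATP synthase subunit (2.17 ± 0.09 and 2.44 ± 0.09), CTBP1, a corepressor (1.96 ± 0.13 and 2.28 ± 0.13), LETM1, a mitochondrial ion exchanger (2.35 ± 0.16 and 2.10 ± 0.16), and SLBP, which binds histone mRNA (2.10 ± 0.13 and 1.56 ± 0.13). Against UC7, 4 of its genes were lower or level under median scaling, namely UVSSA (-1.02), NELFA (-0.75), NICOL1 (-0.43) and TMEM129 (0.00). UVSSA was also not past the threshold against UC7 without UC14 replicate 1 or 3, Scaber replicate 2 or UC7 replicate 1 or 2 (0.31 to 0.40).

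A window on chromosome 10 from ZMYND11 to ANKRD16 held 14 UC14-higher genes, among them IDI1, AKR1C2, AKR1C3 and AKR1C4. On the lower side 4 windows held 14 UC14-lower genes. That of chromosome 1 from PDE4DIP to C1orf54 contained 7 histone genes. H2AC18 was lower, at -3.14 ± 0.15 and -4.89 ± 0.15 and H2AC19 at -2.66 ± 0.14 and -4.37 ± 0.14, though histone genes of a class are near-identical and their probes may not tell them apart. H3C13, undetected in UC14 and Scaber, lost its call against Scaber without UC14 replicate 1 or 2, Scaber replicate 1 or 3 or UC7 replicate 1 (-0.28 to -0.39, from signals below detection). The window on chromosome 13 from ITM2B to WDFY2 contained RB1, that on chromosome 6 from IFNGR1 to UTRN contained TNFAIP3 and PLAGL1, and that on chromosome 7 from SKAP2 to LSM5 contained SCRN1 and HOXA2. These are counts of expression calls, and copy number was not analysed here.

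Promoter composition differed little between the higher genes and all tested genes. Median GC content was 65.0% for 516 promoters of genes UC14-higher by at least 2-fold, 64.0% for 648 of those UC14-lower and 65.0% for 9456 promoters of tested genes. The ratio of observed to expected CpG was 0.83, 0.78 and 0.84. The letters TATAAA, on either strand, occurred in 6.6% and 9.4% of the higher and lower sets and in 6.1% of all tested. The 28 promoters of genes detected in UC14 only had a median GC content of 60% and a CpG ratio of 0.40, and 10.7% held TATAAA. The 548 promoters of genes undetected in UC14 alone had a CpG ratio of 0.75.

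At the edge of the rule, ZMYM2 and APOE were the genes just inside the threshold. ZMYM2 differed from Scaber by -0.33 ± 0.13 and from UC7 by -1.43 ± 0.13, and APOE was undetected in UC14 and UC7, at least 1.52-fold below Scaber, with means of 4.34 and 4.69 in UC14 and UC7, and a difference from UC7 of 0.89 when median scaling used probes detected on all 18 arrays. Leaving out any array but Scaber replicate 2 ended the ZMYM2 call against Scaber (-0.18 to -0.38), and any array but Scaber replicate 3 the APOE call against UC7 (-0.29 to -0.41). Just outside were ZXDA, undetected in UC14 and Scaber at means of 4.61 and 4.89, and TMEM209, at 0.32 ± 0.13 from UC7 (adjusted p = 0.0501), or -0.96 under median scaling.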

How the data were processed

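Per the file headers, the authors exported from GenomeStudio the non-normalized signal intensity of 47323 probes on each of 18 arrays, deposited with a detection p-value per probe. The authors also deposited log2 values, quantile normalized without background subtraction as far as their distribution shows (sorted values within 0.00176 of the averaged sorted raw signals, median 6.48 on every array). The submitters' processing notes name limma with no version.

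With limma 3.58.1 in R 4.3.3, neqc corrected background by normexp from detection p-values (offset 16) and quantile normalized the 18 arrays. Platform annotation gave 1 symbol to 30113 probes, 30074 of them matched to RefSeq. The 8 probes with several symbols and the 17202 not listed were left out. Named probes with detection p under 0.01 on all 3 arrays of at least 1 control group were kept (15799), and each gene took its brightest probe by the mean over the 9 control arrays (11715 genes, 3231 with further probes). lmFit and eBayes on the 9 control arrays (6 residual and 4.08 prior degrees of freedom) gave two-sided p-values, adjusted by Benjamini-Hochberg over all genes. The 9 treated arrays were fitted alone, and the p63 shRNA comparison on all 18. The script was tested on simulated data. Precision is limited by the number of arrays. The moderated spread is pooled over lines, although the median SD was 0.165 in UC14, 0.143 in Scaber and 0.101 in UC7.

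A gene undetected on all 3 arrays of 1 line gets a lower bound: the brighter mean against the mean, over the dim arrays, of the higher of the lowest detected signal and the probe's own. No fold is given where both lines were undetected. Of 1581 further probes of UC14-specific genes, 892 gave the same call and 23 the opposite.

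The members and the 30 lists (594 genes, 441 tested) were chosen with earlier results of these data known. Genes named were the 14 highest and 14 lowest without overlap between arrays, up to 4 UC14-specific members per list, defining markers, genes nearest the threshold, the strongest reversals on treated arrays, members of the fullest windows, and 26 genes chosen after their values were seen (TAP1, TAPBP, PSMB8, HLA-C, IRF9, IFIT2, BST2, MX2, OAS3, NFKBIA, AKR1C3, AKR1C4, ALDH3A1, GSTT1, CYP1A1, CYP1B1, AKR1B10, UPK1B, UPK2, KRT7, KRT8, KRT19, RRM2, HMGCS1, LSS and COL4A2). Same-numbered arrays of different lines did not deviate together (correlations of -0.149 to 0.0941), so replicate numbers were not used as pairs. TP63, the target of the p63 shRNA, had no named probe and was not analysed here. RefSeq coordinates served only to order genes and for the promoters printed, since no build is named for the array.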

Additional observations from a re-analysis of the deposited data

Results flagged for a closer look

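Of the 27 UC14-higher and 33 UC14-lower genes that were called in the opposite direction on the treated arrays, 9 are named: the 4 with the widest opposite difference in each direction and HEY1, which is named among the Notch genes. For these 9 the baseline difference of UC14 was the reverse of that on the treated arrays, by the way they were chosen. The change also passed the threshold against each line in a fit over all 18 arrays (adjusted p under 0.05, limma). That fit uses the same values by which the 9 were picked, so the pass adds no independent support. Each value below is the UC14 difference on the treated arrays less that on the control arrays, so a treatment of any of the 3 lines enters it, and no cause was tested. Among UC14-higher genes, HBEGF, an EGFR ligand, changed by -2.43 against Scaber and -2.60 against UC7. DUSP5, an ERK phosphatase, changed by -1.88 and -1.81, SLC1A3, a glutamate transporter, by -2.11 and -2.64, MMP2, a gelatinase, by -2.36 and -1.53, and HEY1, a Notch effector, by -2.09 and -2.59. Among UC14-lower genes, MEGF6 changed by 5.70 and 4.51, SLPI, a secreted protease inhibitor, by 4.87 and 2.50, CPZ, a carboxypeptidase, by 2.00 and 1.79, and PLLP, the plasmolipin gene, by 2.23 and 2.57. Within UC14 the p63 shRNA arrays differed from the control arrays by -2.85 for HBEGF, -2.07 for DUSP5, -2.12 for SLC1A3, -2.50 for MMP2 and -2.46 for HEY1, and by 4.33 for MEGF6, 3.43 for SLPI, 1.93 for CPZ and 2.79 for PLLP. Under median scaling DUSP5 and MMP2 were each at -0.97 from UC7 at baseline, and HBEGF at -0.01 from Scaber and -0.60 from UC7. The baseline calls of 4 of them are narrow: leaving out UC14 replicate 2 ended the call against UC7 for DUSP5 (0.16) and MMP2 (0.38), leaving out UC14 replicate 1 that for CPZ (-0.40), and leaving out Scaber replicate 2 that against Scaber for HBEGF (0.25). DUSP5 also did not pass against UC7 without any single Scaber or UC7 array (0.25 to 0.28), MMP2 without UC14 replicate 3 or UC7 replicate 2 or 3 (0.36 to 0.41) and CPZ without UC7 replicate 3 (-0.43). A further probe of CPZ passed in neither comparison (-0.31 and 0.23), and a further probe of PLLP passed against UC7 only.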

How the results depend on the processing

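Counts of UC14-specific genes stayed within 1.5 times with 1 array left out (2133 to 2278 higher, 2056 to 2253 lower), and under array weights, a fit over 18 arrays, pairs of lines alone, no detection filter and the mean of probes (2198 to 2501 higher, 2087 to 2329 lower). With no background correction, and with the authors' values, the 2-fold counts were 396 higher and 397 lower, and with an offset of 50 the lower count was 501. Median scaling over all probes gave 2337 genes higher than Scaber, 735 higher and 9431 lower than UC7, 419 and 4583 UC14-specific, 158 and 1920 at 2-fold, and 268 and 2922 repeated on treated arrays. With only probes detected on all 9 arrays, 7740 genes were tested. Of these, 2270 were lower than Scaber and 2583 lower than UC7, 1170 were UC14-lower, 264 at 2-fold and 686 repeated. UC14-higher genes numbered 2025 there, 476 at 2-fold. That filter leaves out every probe undetected on a UC14 array. A replicate block, though the numbers do not pair the arrays, gave 2228 higher and 2189 lower, and 3 named calls were lost: H3C13 against Scaber, APOE and DUSP5 against UC7.

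Directions turned under median scaling over all probes against Scaber for HBEGF (-0.01) and CDH1 (-0.16), and against UC7 for KRT6C (-0.22), HBEGF (-0.60), ACSL1 (-0.41), DDB2 (-0.39), PDGFRL (-0.27), PPARG (-0.29), EPCAM (-0.87), VIM (-0.05), TMEM209 (-0.96), DUSP5 (-0.97), MMP2 (-0.97), UVSSA (-1.02), TMEM129 (0.00), NELFA (-0.75), NICOL1 (-0.43), MX2 (-0.59), OAS3 (-0.42), AKR1C3 (-0.09), KRT7 (-0.88), RRM2 (-0.14) and LSS (-0.38). Under median scaling over probes detected on all 18 arrays, chosen after seeing the data, they turned against UC7 for RB1 (0.37), MAGEA12 (0.10), FCGR3A (0.69) and APOE (0.89), and with the mean of probes for MEST (0.53 and 1.5). The cause was not tested. Signal near background limits genes undetected in UC14.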

Other observations

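Among 4116 kept probes with no gene name in the annotation, 536 were UC14-higher and 594 UC14-lower, with 165 and 187 at 2-fold or more. They are not identified here.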
